A study of Mus musculus with 22 samples.

Results

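Minor ends upstream of strong sites are weakly used RNA 3′ ends that lie well before a heavily used end on the same strand. Reads at each poly(A) site were pooled over the 20 3′READS libraries of the series. A site with 2000 or more pooled reads was called strong, and one with 30 to 500 was called minor. A member was a minor site with its next strong site 5000 to 20000 nt downstream and no strong site within 20000 nt upstream. Of 611058 sites off the mitochondrial chromosome, 4779 were strong and 31158 were minor, and 913 of the minor sites were members. They lay before 587 strong sites, which were 12.3% of all strong sites. The sites carry mm9 positions and no gene names, so the set is defined by position and depth alone, and a member need not lie in an intron or in the same gene as its strong site.

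Most mammalian genes can end at more than one poly(A) site. Cleavage and polyadenylation at a site inside an intron gives a short transcript and ends transcription before the last exon is reached, so intronic ends compete with splicing and with the full-length end. PCF11 is a subunit of cleavage factor II, binds the C-terminal domain of RNA polymerase II and takes part in both 3′ end cleavage and transcription termination. Its own gene is known to hold an intronic poly(A) site.

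The data come from 3 mouse cell lines, and each group holds 2 libraries. C2C12 is a myoblast line that forms muscle fibres in culture, NIH3T3 is a fibroblast line and 4T1 is a mammary tumour line. The labels give the strain as C57BL/6 for every library. C2C12 cells given siPcf11, an siRNA against Pcf11, were set against untreated cells in total RNA. They were also set against untreated cells in RNA of cells that had been fed 4-thiouridine (4sU), at 50 µM for 1 h, so that newly made RNA carried the label. NIH3T3 cells given siPcf11 were set against untreated NIH3T3 cells, and 4T1 cells labelled Pcf11-IPAKO against untreated 4T1 cells. Differentiated C2C12 cells were set against proliferating ones, both untreated. The labels name no control siRNA, do not spell out IPAKO and do not give the number of clones. The labels do not say whether the 2 libraries of a group are separate cultures, so a p-value here sets a difference against library-to-library spread that may be technical. The level of Pcf11 was not analysed here, so the knockdown itself was not checked. In bulk RNA, fewer cells that use an end and fewer such transcripts per cell cannot be told apart.

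Libraries held between 1818305 and 4228862 reads off the mitochondrial chromosome. Over the sites of each group, a chi-square test of the 2 libraries gave 1.98 to 15.9 per degree of freedom, where counting noise alone gives about 1. At members it gave 1.18 to 5.60, and the siPcf11 NIH3T3 pair was the highest by both. Sites with under 30 pooled reads held 7.37% and 7.85% of reads in the Pcf11-IPAKO libraries, against 2.23% and 2.82% in untreated 4T1 cells.

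The members were thin. Their pooled count had a median of 74 reads, with quartiles at 45 and 152, and all minor sites had a median of 78. The strong site lay a median of 11547 nt downstream, and a member held a median of 1.56% of the reads of the pair it formed with its strong site, with a highest value of 17.7%. A strong site had 1 member in 390 cases, 2 in 120, 3 in 45 and 4 or more in 32. Thus 523 members shared a strong site with another member and are not independent of it. The 20 chromosomes all held members, from 16 on chromosome 18 to 96 on chromosome 11.

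Most members were not read everywhere. A read was present in a median of 13 libraries, 71 members (7.78%) were read in all 20, and 468 were read in all 3 lines. At least 90% of the mean level came from 1 line for 286 members (31.3%), against 36.3% of all minor sites. Of these, 121 were C2C12 sites, 96 NIH3T3 sites and 69 4T1 sites. Another site of 30 or more reads lay within 24 nt of 127 members (13.9%), against 13.2% of minor sites, and whether such neighbours are 1 end listed at different positions was not tested. At their exact position 65 of the 587 strong sites had no read in NIH3T3 and 48 had none in 4T1. With sites within 24 nt merged, there were 601 strong sites before 879 members, and 7 and 11 of these strong sites had no read in NIH3T3 and 4T1. Values are therefore compared within a line.

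The rule cut through a continuous range. At the lower read limit chr11:69496078 had 30 pooled reads and was a member, while chr10:126634157 had 29 and was not. At the upper limit chr19:8883556 had 497 reads and chr2:120833377, just outside, had 501. The member nearest to its strong site was chr17:45699618 at 5000 nt, and the farthest was chr17:24859751 at 19966 nt. A site at chr6:83740755 missed the rule at 20010 nt.

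The members were followed by 3 measures. The share is the reads at members as a percent of all reads in a library. Use is the reads at a member as a percent of its reads plus those of its strong site, and summed use takes all members and their strong sites together. The ratio divides member reads by reads at 900 minor sites placed the mirror way, 5000 to 20000 nt downstream of a strong site with none within 20000 nt further on. Shares, summed use and ratios were compared over libraries with the exact two-sided permutation test. With 2 libraries against 2 the smallest p it can give is 0.333, so no such comparison could pass a threshold of 0.05. Over the 6 comparisons made, adjusted exact p for the share was 0.4 or more.

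In C2C12 total RNA, members held less of the library in siPcf11 cells. Their share was 0.126% (95% Wilson interval 0.121 to 0.131) and 0.120% (0.116 to 0.124) in the siPcf11 libraries, against 0.192% (0.187 to 0.198) and 0.185% (0.179 to 0.190) in untreated ones. These intervals cover counting error only. Both siPcf11 libraries lay below both untreated libraries, and the ratio of the means was 0.652 (exact permutation p = 0.333). The strong sites downstream of the members held 11.7% of reads in each group, with overlapping libraries. Summed use was 1.04% ± 0.0172 in siPcf11 cells and 1.58% ± 0.0325 in untreated cells (SD, n = 2 each). A read was found at 425 and 488 members in the siPcf11 libraries, against 639 and 650 in the untreated libraries; the siPcf11 libraries held 1818305 and 2337842 reads and the untreated ones 2193011 and 2386908.

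The difference was spread over many sites. In mean level, 549 members were lower and 185 higher in siPcf11 than in untreated cells, and 179 had no read. The lower ones were 74.8% of those with a read, against 60.8% of all minor sites. It took 99 of the lower members, ranked by the size of their difference, to reach 0.5 of the difference summed over the lower members alone. The largest single member accounted for 1.81% of the net difference over all members. All minor sites together held 5.13% of reads in siPcf11 cells and 5.98% in untreated cells, and members made up 2.40% of minor-site reads there against 3.16% in untreated cells. Sites of the mirror set held 0.181% of reads in siPcf11 cells and 0.169% in untreated cells. The ratio of members to mirror sites was 0.717 and 0.647 in siPcf11 libraries, against 1.12 and 1.11 in untreated libraries, again without overlap (exact permutation p = 0.333).

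In newly made RNA the share was 0.128% (0.123 to 0.133) and 0.134% (0.129 to 0.139) in siPcf11 4sU libraries, against 0.200% (0.195 to 0.206) and 0.210% (0.204 to 0.216) in untreated 4sU libraries. The groups did not overlap, and the ratio of the means was 0.639 (exact permutation p = 0.333). Summed use was 1.15% ± 0.0421 in siPcf11 4sU RNA and 1.74% ± 0.0916 in untreated 4sU RNA (SD, n = 2 each). The ratio to mirror sites was 0.643 and 0.668 in siPcf11 4sU libraries, against 0.945 and 1.04 in untreated 4sU libraries. In mean level 554 members were lower and 188 higher. The lower ones were 74.7% of those with a read, against 64.4% of all minor sites, and all minor sites together held 5.58% of reads in siPcf11 4sU RNA and 6.89% in untreated 4sU RNA. Mirror sites held 0.200% of reads in siPcf11 4sU RNA and 0.207% in untreated 4sU RNA.

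**Figure D1:**
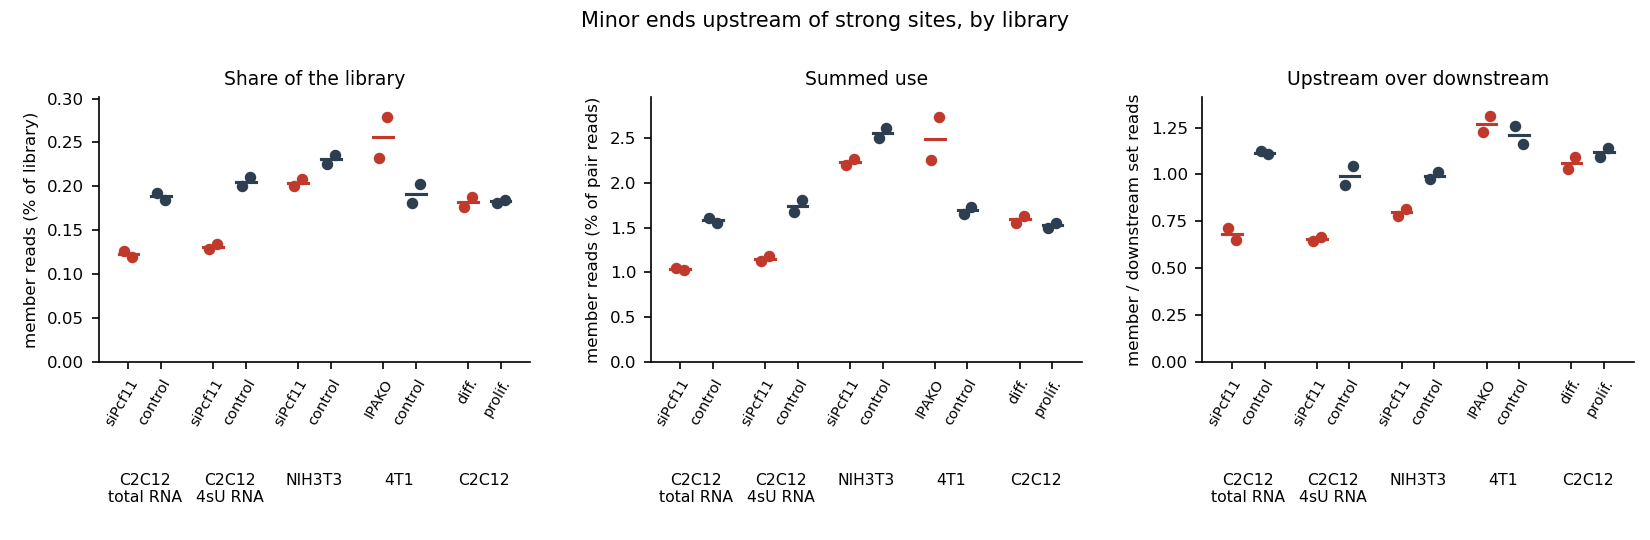
Member reads in each library as a percent of all reads (left), as a percent of the reads of members plus their strong sites (middle) and divided by the reads of the downstream mirror set (right). Points are libraries and bars are means of 2; all siPcf11 libraries lie below their untreated libraries in all panels, Pcf11-IPAKO libraries lie above theirs in the left and middle panels, and the right panel shows overlap for 4T1.

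Single members were tested for use with edgeR's diffSpliceDGE over all sites that lie before a strong site. Benjamini-Hochberg adjustment ran over all of them, with an adjusted p under 0.05 as the threshold. The test sets a member against the whole unit of its strong site and the sites before it. Its log2 change therefore need not match the percentages of use, which take the member and its strong site alone. A fit needed at least 20 reads over its libraries, and 409 of the 913 members had them in the C2C12 siRNA fit. The strong site had to pass the same filter, so 391 members could be tested for use. Counts in use below refer to those. In total RNA 82 members fell in use and 36 rose. Among all 3353 sites tested, 14.0% fell and 6.98% rose, and the members called were 21.0% and 9.21% of those tested. In 4sU RNA 79 fell and 37 rose, against 12.7% and 6.74% of all sites. With any 1 library left out the members called in total RNA numbered between 69 (without siPcf11 replicate 2) and 80 (without siPcf11 replicate 1), 71 without untreated replicate 1 and 74 without untreated replicate 2, and more fell than rose each time. In 4sU RNA they numbered 64 and 72 without siPcf11 replicates 1 and 2, and 67 and 71 without untreated replicates 1 and 2. The median fitted log2 change in use was -0.69 for members in total RNA, or -0.54 with members that had no read in a group set at their bound, and -0.24 for all sites tested. In 4sU RNA the medians were -0.63, -0.56 and -0.25.

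The 2 RNA fractions share no library, though their spread was estimated together. The labels call the total RNA libraries input and number them like the 4sU libraries, but do not say whether both came from the same cultures. Calls shared by the fractions may therefore not be independent. Of the 118 members called in total RNA and the 116 called in 4sU RNA, 68 were called in both (57.6% and 58.6%), 45 lower and 23 higher in both and none in opposite directions. Of the 82 that fell in total RNA, 81 had a negative change in 4sU RNA. Without the untreated libraries of both fractions 74 of these 82 would have failed the filter of the fit, which favours a negative change in both. The same overlap was not worked out for all sites tested, so it is not read as a trait of members. The test of the difference between the fractions called none of 391 members in use (edgeR, 41 at an unadjusted p under 0.05), and also none of all 3353 sites (218 at an unadjusted p under 0.05). In level, 1 of 409 members differed in its response between the fractions (chr12:16977474), against 0.136% of all 24915 sites.

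The members that fell furthest had no read at all in siPcf11 cells. At chr5:121002574 (minus strand, 18408 nt before its strong site) the siPcf11 total RNA libraries had 0 and 0 reads, against 15 and 6 in untreated cells. Use was 0% and 0% in siPcf11 cells, against 9.55% and 4.20% in untreated cells. With 3 reads over the siPcf11 group as the limit, the member was at least 11.4-fold lower in use and 6.35-fold lower in level. In 4sU RNA the same site had 0 and 0 reads in siPcf11 cells and 9 and 9 in untreated cells. There it was at least 8.39-fold lower in use and 4.87-fold lower in level. At chr13:49368748 (minus strand) siPcf11 cells had no read in total or 4sU RNA, while untreated cells had 9 and 13 reads in total RNA and 15 and 15 in 4sU RNA. Use was at least 6.62-fold lower in total RNA and at least 16.6-fold lower in 4sU RNA. Level was at least 6.65-fold and 8.11-fold lower. At chr7:52965398 (plus strand), before a strong site with 25663 pooled reads, siPcf11 cells had 0 and 0 reads and untreated cells 12 and 12 in total RNA, at least 7.19-fold lower in use.

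Other members without a siPcf11 read were chr3:41410693, chr14:47467738, chr2:72240436, chr18:61740469 and chrX:150164349 in total RNA. Untreated cells had between 4 and 14 reads per library at these 5, and the bounds on use lay between 5.64-fold and 6.39-fold. In 4sU RNA chr2:90880638 had 0 and 0 reads in siPcf11 cells, against 10 and 4 in untreated cells. It was at least 11.9-fold lower in use and 3.79-fold lower in level, with 681 strong-site reads in siPcf11 and 267 in untreated cells. At chr7:29691773 siPcf11 4sU libraries had 0 and 0 reads, against 7 and 13 in untreated ones. That member was at least 10.6-fold lower in use and 5.41-fold lower in level. Over all members called in use, 27 in total RNA and 23 in 4sU RNA had no read in siPcf11 cells, so depth limits how far these falls can be sized. Of the 82 members that fell in total RNA, 74 would have failed the 20-read filter of the fit without the untreated libraries of both fractions, and 7 would have had under 30 pooled reads. For the 79 in 4sU RNA these counts were 67 and 9. Of the members that rose, 14 of 36 in total RNA and 13 of 37 in 4sU RNA would have failed the filter without the siPcf11 libraries. The filter is thus passed in part through the group where a member is high, and the counts describe the members tested and do not stand for all 913.

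Better read members gave fold changes that can be sized. The member at chr1:152287445 (plus strand), 9617 nt before its strong site, was among the 6 with the most pooled reads, at 495. Its use was 1.02% and 0.997% in siPcf11 total RNA, against 9.47% and 4.38% in untreated total RNA (log2 change -2.65, SE 0.63, edgeR adjusted p = 0.00075). In 4sU RNA it was 0.870% and 1.35% in siPcf11 cells, against 3.70% and 3.45% in untreated cells (log2 change -1.67, SE 0.54, edgeR adjusted p = 0.0167). Both siPcf11 libraries lay below both untreated libraries in each fraction. The member had 5 reads in siPcf11 total RNA and 10 in siPcf11 4sU RNA, against 41 and 48 in untreated cells. Without the untreated libraries of both fractions it would have failed the filter of the fit. Its selection for testing thus favoured a fall, and its adjusted p-values carry that limit.

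A smaller number of members rose. The member at chr17:24859751 (plus strand) had 24 and 34 reads in siPcf11 total RNA, against 1 and 1 in untreated cells. Its use was 13.5% and 14.7% in siPcf11 cells and 0.529% and 0.490% in untreated cells, a ratio of 32.2 with a 95% counting interval from 8.39 to 274. In 4sU RNA it had 23 and 17 reads in siPcf11 cells, against 1 and 0 in untreated cells, a ratio in use of 44.1 (7.37 to 1789). Of its 108 pooled reads, 98 were from siPcf11 C2C12 libraries, so it met the 30-read limit through them. At chr2:164318819 siPcf11 total RNA had 13 and 14 reads, against 1 and 1 in untreated cells (ratio in use 18.3, interval 4.47 to 160). Untreated cells had 17 reads at this site in 4sU RNA, and its use was not called between siPcf11 and untreated 4sU RNA. The member at chrX:20525515 (minus strand) had 8 and 4 reads in siPcf11 cells and 0 and 0 in untreated cells, at least 5.65-fold higher in use. In 4sU RNA it had 10 reads in siPcf11 cells and 1 in untreated cells. Without the siPcf11 libraries of both fractions each of these members would have failed the filter of the fit. Their selection for testing thus favoured a rise. In total RNA no untreated library reached the level of a siPcf11 library at any of these sites. That order was fixed by their choice among members without overlap of the groups.

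In 4sU RNA the steepest rise was at chr2:181591558 (plus strand), with 4 and 10 reads in siPcf11 cells against 0 and 1 in untreated cells. Use was 16.7% and 34.5% in siPcf11 4sU RNA, against 0% and 0.431% in untreated 4sU RNA, but its strong site had only 39 reads in siPcf11 cells and 429 in untreated cells. The best read was chr12:16977474 (plus strand), 16042 nt before its strong site, with 63 and 68 reads in siPcf11 4sU RNA against 10 and 10 in untreated 4sU RNA. Its use was 60.0% and 71.6% in siPcf11 cells, against 12.2% and 11.5% in untreated cells (log2 change 3.10, SE 0.36, edgeR adjusted p = 2.42e-12). In total RNA the same member had 1 and 3 reads in siPcf11 cells and 1 and 9 in untreated cells, so the rise was seen in 1 fraction and its groups overlapped in the other.

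For some members the reads at the strong site differed more than those at the member. At chr7:29184534 (minus strand) siPcf11 total RNA had 13 and 9 reads, against 7 and 6 in untreated cells, and its level was not called (edgeR adjusted p = 0.176). Its strong site had 43 reads in siPcf11 cells and 548 in untreated cells, and use was 46.4% and 24.3% in siPcf11 cells against 2.30% and 2.34% in untreated cells. At chr2:30040644 use was 27.3% and 30.8% in siPcf11 cells, against 2.48% and 1.44% in untreated cells, with 59 strong-site reads in siPcf11 cells and 402 in untreated cells. Of the 36 members that rose in use in total RNA, 20 also rose in level and 16 were not called in level, and 26 lay before a strong site that fell. Of the 82 that fell in use, 64 also fell in level and 46 lay before a strong site that rose. Without 1 library, 76 to 90 members were called in level in total RNA and 59 to 74 in 4sU RNA. In level, 95 of 409 tested members fell and 28 rose in total RNA, where 18.7% and 16.6% of all 24915 sites did. In 4sU RNA 85 fell and 26 rose in level, against 18.7% and 15.5% of all sites.

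The member at chr10:79417760 (plus strand), 12677 nt before its strong site and with 490 pooled reads, also rose in use. Use was 21.6% and 28.6% in siPcf11 total RNA, against 4.10% and 3.24% in untreated total RNA (log2 change 2.73, SE 0.47, edgeR adjusted p = 1.71e-06). In 4sU RNA it was 27.3% and 20.5% in siPcf11 cells, against 6.95% and 12.5% in untreated cells (log2 change 1.32, SE 0.46, edgeR adjusted p = 0.0273). At chr11:120471372 (minus strand), use was 13.8% and 8.87% in siPcf11 total RNA, against 3.01% and 2.75% in untreated total RNA (log2 change 1.73, SE 0.38, edgeR adjusted p = 0.000189). Of the other members with the most reads, chr12:80275322 and chr13:55415377 were not called in either fraction, and chr19:8883556 had no read in C2C12.

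The log2 ratio of the share was lower for members nearer to the strong site. In C2C12 total RNA the 377 members 5000 to 10000 nt before the strong site held 0.0434% and 0.0429% of reads in siPcf11 libraries, against 0.0803% and 0.0769% in untreated libraries, a log2 ratio of -0.87. The 536 members 10000 to 20000 nt away held 0.0827% and 0.0770% in siPcf11 libraries, against 0.112% and 0.108% in untreated libraries, a log2 ratio of -0.46. The difference between the 2 distance classes was not tested. Minor sites nearer to the strong site, which are not members, gave -0.68 at 2000 to 5000 nt, -0.41 at 500 to 2000 nt and -0.29 within 500 nt. Downstream of strong sites the log2 ratio was 0.64 at 2000 to 5000 nt, 0.48 at 5000 to 10000 nt and -0.22 beyond. In use, 36 of 161 tested members of the near class fell and 4 rose, and in the far class 46 of 230 fell and 32 rose.

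**Figure D2:**
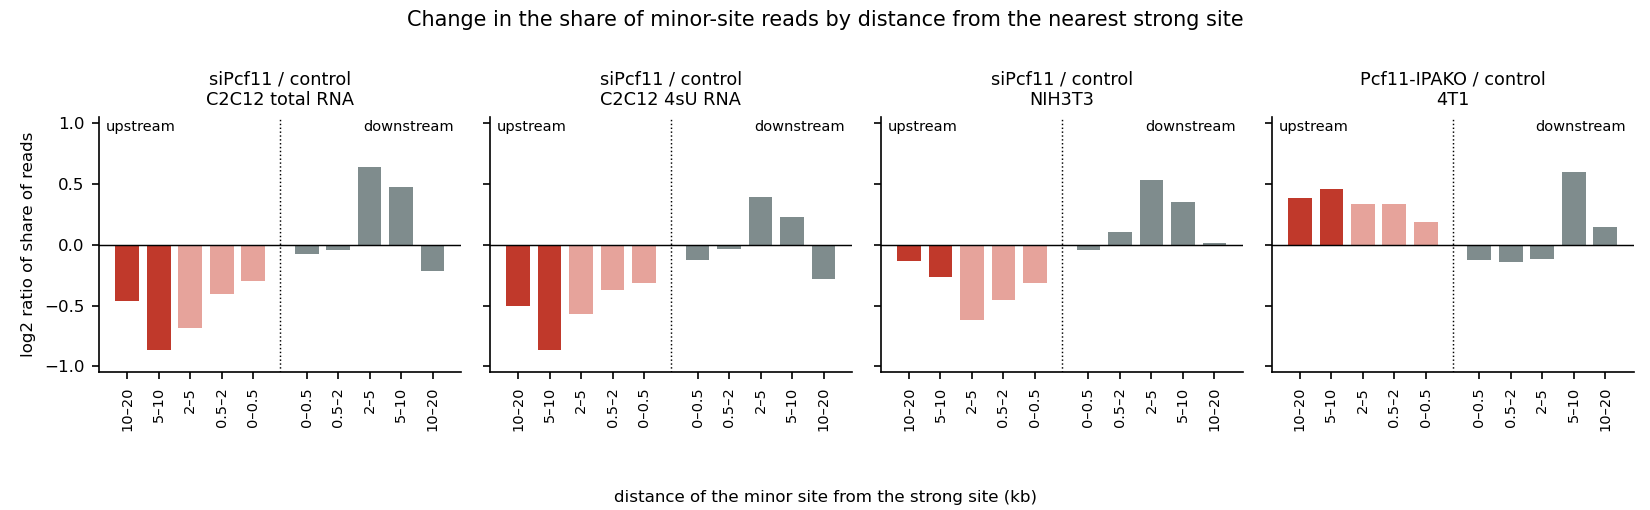
Log2 ratio of the share of reads at minor sites, by distance in kb from the nearest strong site, in 4 comparisons. Minor sites that lie upstream of the strong site are left of the dotted line, and those that lie downstream of it are right. Members are the dark red bars; in C2C12 siPcf11 cells the lowest value is at 5 to 10 kb upstream (-0.87 in total RNA), while in Pcf11-IPAKO 4T1 cells all upstream bars are above 0.

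In NIH3T3 cells both siPcf11 libraries again lay below both untreated libraries. The share was 0.200% (0.195 to 0.206) and 0.208% (0.204 to 0.213) in siPcf11 libraries, against 0.226% (0.221 to 0.231) and 0.235% (0.230 to 0.241) in untreated libraries. The ratio of the means was 0.886 (exact permutation p = 0.333), and its difference from the ratio in C2C12 was not tested. Summed use was 2.23% ± 0.0463 in siPcf11 cells and 2.56% ± 0.0751 in untreated cells (SD, n = 2 each). The ratio to mirror sites was 0.780 and 0.816 in siPcf11 libraries, against 0.973 and 1.01 in untreated ones. Members with a read numbered 448 and 381 in siPcf11 libraries, against 560 and 567 in untreated libraries, and the library with 381 was the deepest of the 4.

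No single member passed the threshold in NIH3T3. edgeR called 0 of 276 members in use (47 at an unadjusted p under 0.05) and 0 of 310 in level (54), and likewise 0.0% of all 2137 sites in use (292 at an unadjusted p under 0.05) and 0.0% of 24195 in level (3385). DESeq2 called 1 member in level. Without siPcf11 replicate 1, 85 members were called in use, 45 lower and 40 higher, and without siPcf11 replicate 2, 34 were, 22 lower and 12 higher. Without either untreated library the count was 0. In level the counts were 89, 31 and 0. A fit without 1 siPcf11 library takes its spread from the untreated pair and assumes that the lone siPcf11 library varies like it. The median log2 change in use was -0.046 for members and -0.23 for all sites tested, and 48.2% of members and 40.1% of all sites were higher. In share, the log2 ratio was -0.27 for members at 5000 to 10000 nt and -0.13 beyond, while minor sites nearer to the strong site gave -0.62 at 2000 to 5000 nt and -0.45 at 500 to 2000 nt. The median of the members was thus above that of all sites tested. The 3 members with the smallest p in use were all lower in siPcf11 cells. At chr18:61740469 siPcf11 cells had 7 and 0 reads, against 87 and 91 in untreated cells, and use was 5.22% and 0% against 37.2% and 42.1% (edgeR adjusted p = 0.0578). At chr10:67490499 siPcf11 cells had 0 and 0 reads, against 31 and 24 in untreated cells, and these 55 are all of its pooled reads, so untreated NIH3T3 reads alone made it a member. At chr5:32442977 siPcf11 cells had 5 and 3 reads, against 38 and 38 in untreated cells. The groups did not overlap at these 3 sites. Without the untreated libraries each of the 3 would have failed the filter of the fit. Their selection for testing thus favoured falls, and their common direction is no independent support for a fall.

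Members called in C2C12 were also looked up in NIH3T3, which shares no library with it. Of the 27 that fell in use in C2C12 total RNA and could be tested in NIH3T3, 22 were lower there, while 48.2% of all 276 tested members were higher. Of the 15 that rose and could be tested, 12 were higher. At chr1:152287445 use was 4.76% and 0.615% in siPcf11 NIH3T3 cells, against 13.1% and 7.37% in untreated cells, and was not called (edgeR adjusted p = 0.244). At chr10:79417760 it was 26.6% and 31.8% in siPcf11 NIH3T3 cells, against 6.45% and 11.7% in untreated cells, and was not called either (edgeR adjusted p = 0.101). At both sites the 2 NIH3T3 groups did not overlap.

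In 4T1 cells both Pcf11-IPAKO libraries lay above both untreated libraries. The share was 0.232% (0.226 to 0.239) and 0.279% (0.274 to 0.285) in Pcf11-IPAKO libraries, against 0.181% (0.175 to 0.186) and 0.202% (0.198 to 0.207) in untreated libraries. The ratio of the means was 1.34 (exact permutation p = 0.333), a log2 ratio of 0.42. With 870 members chosen on the other 16 libraries the log2 ratio was 0.15, with 0.268% of reads in Pcf11-IPAKO cells and 0.241% in untreated cells, and the groups still did not overlap. Summed use was 2.50% ± 0.335 in Pcf11-IPAKO cells and 1.69% ± 0.0570 in untreated cells (SD, n = 2 each). The strong sites held 10.0% of reads in Pcf11-IPAKO cells and 11.1% in untreated cells. In mean level 380 members were higher and 301 lower. Sparse sites, with under 30 pooled reads, were also higher in Pcf11-IPAKO libraries (7.37% and 7.85%, against 2.23% and 2.82%), and their part in the result was not tested.

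On the downstream side the 4T1 difference had the same direction. Mirror sites held 0.190% and 0.213% of reads in Pcf11-IPAKO libraries, against 0.144% and 0.174% in untreated libraries. The ratio of members to mirror sites was 1.22 and 1.31 in Pcf11-IPAKO libraries, against 1.26 and 1.16 in untreated libraries, and the groups overlapped (exact permutation p = 0.667). Members made up 3.79% and 4.07% of minor-site reads in Pcf11-IPAKO libraries, against 3.23% and 3.31% in untreated libraries, without overlap. The near and far members had log2 ratios of 0.46 and 0.39 in share.

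Of 340 members tested in 4T1, 16 rose in use and 0 fell (edgeR), where 1.9% of all 2625 sites rose and 0.0381% fell. Without the Pcf11-IPAKO libraries 11 of the 16 would have had under 30 pooled reads, 12 would have failed the filter of the fit and 2 would have met both limits. The choice of members therefore favours rises here, and the count is no independent support for them. In level 19 of 365 rose and 0 fell, where 1.62% and 0.249% of all 20096 sites did. The count in use was 0 without untreated replicate 1, 9 without untreated replicate 2, and 13 and 10 without Pcf11-IPAKO replicates 1 and 2. The median log2 change in use was 0.36 for members and 0.24 for all sites, and 65.3% of members and 65.6% of all sites were higher.

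**Figure D3:**
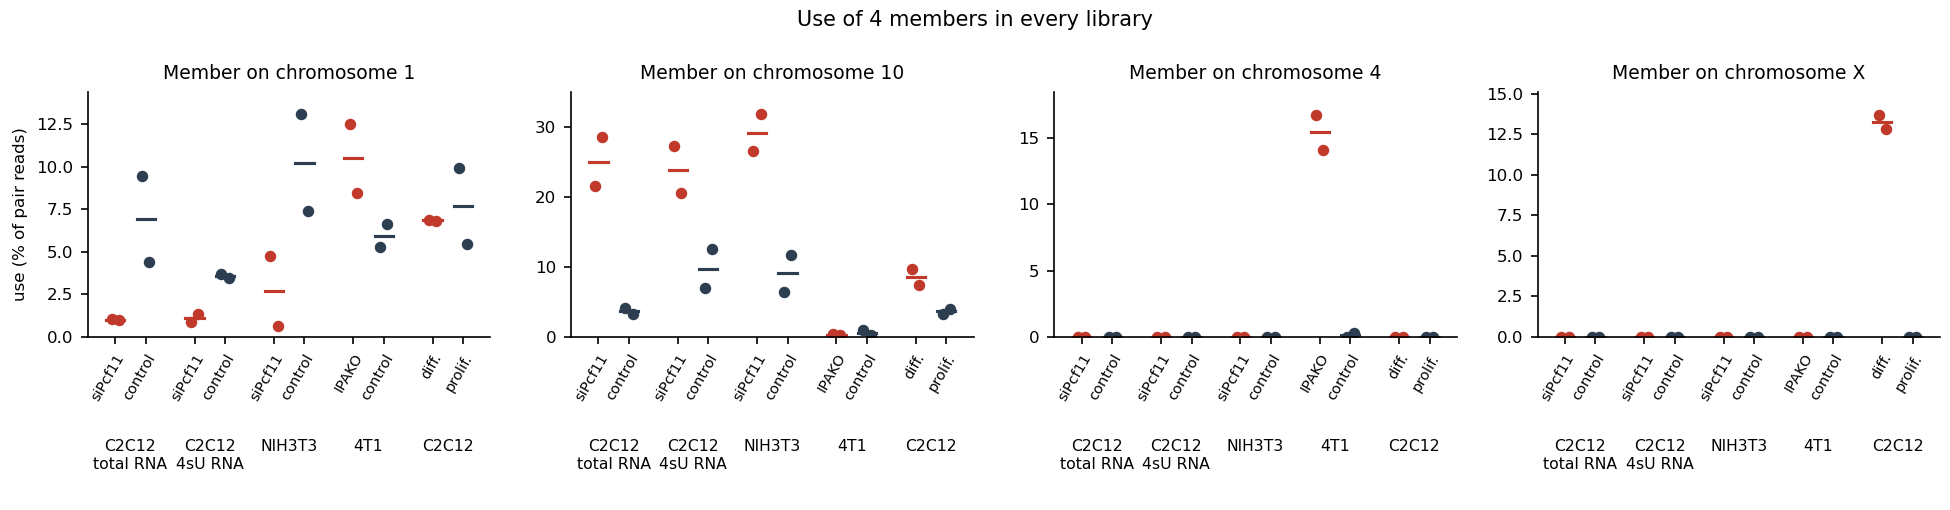
Use of 4 members, as a percent of the reads of member plus strong site, in every library; bars are means of 2. The chromosome 1 member is lower in siPcf11 than in untreated C2C12 cells and the chromosome 10 member is higher; the chromosome 4 member was read, bar 1 read, in Pcf11-IPAKO 4T1 cells and the chromosome X member only in differentiated C2C12 cells.

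The members with the largest differences in 4T1 are given as values, with no test, since Pcf11-IPAKO reads brought each of the next 5 past the 30-read limit. The member at chr4:130324732 (plus strand), 12747 nt before its strong site, had 20 and 60 reads in Pcf11-IPAKO cells, against 0 and 1 in untreated cells, and use was 16.8% and 14.2% against 0% and 0.308%. At chr10:110922558 (plus strand) Pcf11-IPAKO cells had 58 and 142 reads, against 0 and 16 in untreated cells, and use was 25.7% and 28.4% against 0% and 4.09%. At chr1:59762436 (plus strand) use was 38.8% and 16.7% in Pcf11-IPAKO cells, against 0.980% and 1.52% in untreated cells. The members at chr17:71990623 and chr17:71992044 lay before the same strong site. The first had 21 and 25 reads in Pcf11-IPAKO cells, against 0 and 3 in untreated cells. The other had 4 and 31 reads in Pcf11-IPAKO cells, against 0 and 3 in untreated cells. In these 5 members both Pcf11-IPAKO libraries were above both untreated libraries. They were chosen among members without overlap of the groups, so this order was fixed by the choice.

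Members that fell in C2C12 after siPcf11 were also looked up in 4T1. Of the 42 that fell in use in C2C12 total RNA and could be tested in 4T1, 30 were higher in Pcf11-IPAKO than in untreated cells and 12 lower, while 65.3% of all tested members were higher. Of the 10 that rose in C2C12 total RNA and could be tested in 4T1, 4 were higher. None of the members called in C2C12 total RNA was called in 4T1. One was called in both C2C12 4sU RNA and 4T1. This was chr2:92242182 (minus strand), with a use of 7.78% and 13.2% in siPcf11 4sU RNA, against 2.53% and 1.19% in untreated 4sU RNA. In 4T1 its use was 59.0% and 48.6% in Pcf11-IPAKO cells, against 3.77% and 6.93% in untreated cells (log2 change 3.25, SE 0.54, edgeR adjusted p = 0.00335). It was named for being called in both lines, so the shared call is no independent support for a rise. Of the 16 members called in 4T1, 2 met both limits without the Pcf11-IPAKO libraries, and its adjusted p in 4T1 carries that limit. Its use in C2C12 total RNA was not called (log2 change -0.76, SE 0.96, edgeR adjusted p = 0.631). At chr1:152287445 use was 12.5% and 8.48% in Pcf11-IPAKO cells, against 5.27% and 6.62% in untreated 4T1 cells, and was not called (edgeR adjusted p = 0.803).

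In C2C12 differentiation single members rose and fell, while the share of the whole set overlapped between the 2 states. The share was 0.176% (0.172 to 0.181) and 0.187% (0.183 to 0.192) in differentiated cells, against 0.181% (0.177 to 0.186) and 0.184% (0.180 to 0.189) in proliferating cells. The exact permutation p was 1, and the log2 ratio ranged from -0.051 to 0.036 when single libraries were left out. The 2 distance classes went opposite ways, each without overlap. Members at 5000 to 10000 nt held 0.0601% and 0.0633% in differentiated cells, against 0.0712% and 0.0711% in proliferating cells. Those at 10000 to 20000 nt held 0.116% and 0.124%, against 0.110% and 0.113%. The log2 ratios were -0.21 and 0.11, and their difference was not tested. Summed use was 1.59% ± 0.0558 in differentiated cells and 1.53% ± 0.0361 in proliferating cells, and the ratio to mirror sites was 1.06 ± 0.0451 and 1.12 ± 0.0332 (SD, n = 2 each). Neither of these overlapped (exact permutation p = 0.333 each), and the first was higher and the other lower in differentiated cells. In use, 52 of 367 tested members rose and 53 fell (edgeR), where 6.26% and 10.9% of all 3229 sites did. Without differentiated replicate 1 or 2 the members called in use numbered 65 and 65, and without proliferating replicate 1 or 2 they numbered 79 and 73. In level 80 rose and 62 fell of 373, where 25.5% and 22.8% of all 23719 sites did, and without 1 library between 86 and 95 were called.

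The most reads found in 1 state alone were at chrX:71024264 (plus strand), 11886 nt before its strong site. It had 218 and 243 reads in differentiated cells and 0 and 0 in proliferating cells, and no read in any other group of the series. Use was 13.7% and 12.8% in differentiated cells and 0% and 0% in proliferating cells. All of its 461 pooled reads are from differentiated cells, so those reads made it a member and its difference is given as a description, with no test. Its strong site had 3024 reads in differentiated and 2464 in proliferating cells. At chr5:108870082 (minus strand) differentiated cells had 106 and 156 reads, against 3 and 3 in proliferating cells, and use was 11.3% and 13.7% against 0.539% and 0.415%. At chr7:31836699 (minus strand) differentiated cells had 28 and 20 reads, against 0 and 0, at least 50.7-fold higher in use. Of the 52 members that rose in use, 7 would have had under 30 pooled reads without the differentiated libraries, and 31 would have failed the filter of the fit. Of the 53 that fell, 2 and 32 would have done so without the proliferating libraries.

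The largest falls in use lay before strong sites that were read in differentiated but not in proliferating cells. The strong site of chr7:4474556 had 2842 reads in differentiated and 0 in proliferating cells, and the member had 0 and 0 reads in differentiated cells, against 11 and 11 in proliferating cells. The strong site of chr7:52580693 had 2164 reads in differentiated and 0 in proliferating cells. The member itself had 8 and 8 reads in differentiated cells, against 10 and 11 in proliferating cells, and its level was not called (edgeR adjusted p = 0.54). Other members fell against a strong site that was read in both states. At chr9:108001409 (minus strand) differentiated cells had 1 and 0 reads, against 21 and 35 in proliferating cells, with a use 59.7-fold lower (10.2 to 2403). At chr13:49368748, the member without a read in siPcf11 C2C12 cells, differentiated cells also had 0 and 0 reads, against 19 and 23 in proliferating cells, at least 3.91-fold lower in use.

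Newly made RNA held slightly more member reads than total RNA in untreated C2C12 cells. The shares were 0.200% and 0.210% in 4sU RNA, against 0.192% and 0.185% in total RNA, a ratio of 1.09 without overlap (exact permutation p = 0.333). As a percent of minor-site reads the order was the other way, at 2.98% in 4sU RNA and 3.16% in total RNA. In use 22 of 391 members were higher in 4sU RNA and 3 lower (edgeR), where 2.56% and 1.43% of all 3353 sites were, and the count ran from 3 to 14 with single libraries left out, 3 without untreated 4sU replicate 2, 7 without untreated total RNA replicate 1 and 14 without either other library. The highest was chr2:168764129 (minus strand), with 11 and 20 reads in 4sU RNA against 1 and 0 in total RNA and a ratio in use of 36.8 (6.01 to 1508). At chr2:56970417 (minus strand) use was 11.2% and 9.57% in 4sU RNA, against 1.35% and 1.67% in total RNA (log2 change 2.71, SE 0.53, edgeR adjusted p = 0.000226). At chr16:90238870 (minus strand) it was 5.23% and 10.4% in 4sU RNA, against 0.798% and 1.33% in total RNA. At the 3 sites both 4sU libraries were above both total RNA libraries, an order fixed by their choice among members without overlap of the groups.

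The 4 strong sites with the most members differed in how their members' summed use stood. The strong site at chr8:108222057 (minus strand) had 8 members, the most of any. Together these held 68.8% and 50.0% of the reads of the group of sites in siPcf11 total RNA, against 10.8% and 27.4% in untreated total RNA. In 4sU RNA they held 63.2% and 77.4% in siPcf11 cells, against 29.6% and 44.4% in untreated cells. The member reads themselves were 26 in siPcf11 and 28 in untreated total RNA, while the strong site had 20 and 119. In 4T1 the members held 29.3% and 40.9% in Pcf11-IPAKO cells, against 50.3% and 51.3% in untreated cells. Most of these reads were at 1 member, chr8:108227551, which was read in 4T1 alone. It had 103 of the 139 member reads in Pcf11-IPAKO cells and 214 of the 285 in untreated cells. The 7 members of the strong site at chr15:103021977 (minus strand) held 4.78% and 6.62% in siPcf11 total RNA, against 11.6% and 13.3% in untreated total RNA. The 6 members before chr17:35390628 (plus strand) held 7.69% and 7.23% in siPcf11 total RNA, against 2.83% and 3.13% in untreated total RNA. In 4T1 these members held 87.0% and 91.8% in Pcf11-IPAKO cells, against 66.7% and 64.3% in untreated cells. Their strong site had only 15 reads in Pcf11-IPAKO cells and 24 in untreated 4T1 cells. The 6 before chr11:77851366 (plus strand) held 19.0% and 28.9% in siPcf11 total RNA, against 26.1% and 21.6% in untreated total RNA, and these groups overlapped. In 4T1 the groups also overlapped for the members before chr15:103021977 and chr11:77851366. The groups did not overlap in the other comparisons of summed use given here, and no test was made for groups of members.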

How the data were processed

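Read counts per poly(A) site from 20 3′READS libraries were used as deposited by the authors, who list mm9 positions without gene names. The submitters' processing notes name cutadapt, Bowtie2, STAR and mm9; how reads were grouped into sites and whether genomic A-rich ends were filtered is not given in the sources used here. RNA-seq of 3T3-L1 cells (2 libraries) was left out.

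Members and site sets were chosen with earlier results of these data known. Level was tested with edgeR 4.0.16 (quasi-likelihood F-test, TMM, sites with 20 or more reads in the fit) and use with diffSpliceDGE, in R 4.3.3, with Benjamini-Hochberg adjustment over all sites at 0.05. One fit held the 8 C2C12 siRNA libraries, and each other comparison had a fit of its own 4. Named members are the 8 with the largest change in each direction among those called without overlap of the groups (with none called, the 3 with the smallest p), the 6 with the most reads and the 4 strong sites with the most members. Shares carry 95% Wilson intervals and were compared by exact permutation. A group at 0 was set at 3 reads over the group. Scripts were tested on simulated counts. Alternatives covered the filter, the scaling, DESeq2 1.42.0, the thresholds of the rule, merging of sites within 24 nt, a replicate block and each library left out. Depth was 1818305 to 4228862 reads per library. No mm9 sequence was used here, so none is printed.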

Additional observations from a re-analysis of the deposited data

Results flagged for a closer look

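The level of the member at chr12:16977474 responded differently to siPcf11 in newly made and in total C2C12 RNA, by a test of that difference. The response in 4sU RNA exceeded that in total RNA by 4.15 on the log2 scale (SE 0.93, edgeR adjusted p = 0.0123). The site had 63 and 68 reads in siPcf11 4sU libraries and 10 and 10 in untreated 4sU libraries. It had 1 and 3 reads in siPcf11 total RNA and 1 and 9 in untreated total RNA. It was the member called by this test out of 409. It was not called without siPcf11 total RNA replicate 1, without untreated total RNA replicate 2, with no filter or with DESeq2, and the reason was not tested.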

How the results depend on the processing

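The share of member reads kept its direction in 83 of 90 alternative settings, summed use in 75 of 78 and the ratio to mirror sites in 72 of 78, and no direction turned in the siPcf11 comparisons. For share in differentiated over proliferating C2C12 cells, the log2 ratio of -0.01 became 0.086 with strong sites from 5000 pooled reads, 0.030 with minor sites of 100 to 500 reads, 0.11 at 10000 to 20000 nt and 0.38 with members chosen on the libraries not compared. Under the same 4 settings the log2 ratio to mirror sites, -0.08, became 0.12, 0.013, 0.066 and 0.018. Summed use there, 0.06, became -0.030 with strong sites from 1000 reads, -0.16 with minor sites of 30 to 100 reads and -0.20 at 5000 to 10000 nt. In 4T1 the ratio to mirror sites, 0.07, became -0.051 with minor sites of 30 to 100 reads and -0.15 at 5000 to 10000 nt. Over minor-site reads, the share in 4sU over total RNA was -0.082 in place of 0.12. With members chosen on the libraries not compared, the share gave -0.57 in C2C12 total RNA, -0.49 in 4sU RNA, -0.19 in NIH3T3 and 0.15 in 4T1.

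Counts of called members depended more on the setting. In level, the 123 members called in C2C12 total RNA became 73 with filterByExpr, 44 with no filter, 34 with DESeq2 and 80 with the 4 compared libraries alone. The 118 called in use became 68 with filterByExpr and 77 with the 4 libraries. In 4sU RNA the 111 in level became 53 with no filter and 36 with DESeq2. In NIH3T3, 0 in use became 7 with filterByExpr and 1 with no filter, and 0 in level became 14 with no filter and 1 with DESeq2. In 4T1 the 19 in level became 12 with DESeq2. In differentiation the 142 in level became 59 with DESeq2, and library totals in place of TMM called 64 higher and 74 lower, against 80 and 62. In 4sU against total RNA the 23 in level became 8 with no filter and 3 with DESeq2. The 1 member whose level response differed between fractions became 0 with no filter and 0 with DESeq2. The cause of these changes was not tested. For single named members, 580 of 642 values stayed on the same side of the threshold, 50 lost the call, 12 gained it and 0 turned.

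The labels do not say that replicate numbers pair libraries, and same-numbered libraries deviated with a correlation of 0.035 to 0.057 outside 4T1 and 0.321 in 4T1. With the replicate number as a block, use in NIH3T3 gave 2 members, and in 4T1 use gave 33 (32 higher) and level 42 (39 higher).

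With single libraries left out, members called in level ranged from 76 to 90 in C2C12 total RNA, 59 to 74 in 4sU RNA, 0 to 89 in NIH3T3, 13 to 21 in 4T1, 86 to 95 in differentiation, 9 to 15 in 4sU against total RNA and 0 to 1 for the difference between fractions. In use the ranges were 69 to 80, 64 to 72, 0 to 85, 0 to 13, 65 to 79, 3 to 14 and 0 to 1. The share had log2 ratios of -0.65 to -0.58, -0.68 to -0.61, -0.20 to -0.14, 0.28 to 0.54, -0.051 to 0.036 and 0.09 to 0.16 over the first 6. Summed use had -0.63 to -0.59, -0.65 to -0.54, -0.23 to -0.17, 0.42 to 0.69, 0.03 to 0.10 and 0.09 to 0.20. The ratio to mirror sites had -0.78 to -0.64, -0.67 to -0.53, -0.35 to -0.28, 0.01 to 0.13, -0.12 to -0.03 and -0.24 to -0.10. With 30 to 500 reads over 20 libraries, a member that was not called may still differ.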
